A study of Homo sapiens with 18 samples.

Results

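Interferons reach the cell through receptors built of paired chains, each of which holds a Janus kinase (JAK). IFNγ, the single type II interferon, binds IFNGR1, which carries JAK1, and signals with IFNGR2, which carries JAK2. Type I interferons bind IFNAR2, which carries JAK1, together with IFNAR1, which carries TYK2. IL10RB is the shared chain of the receptors for IL-10, IL-22 and the type III interferons, and also carries TYK2. The kinases phosphorylate STAT proteins, which enter the nucleus and switch on interferon-stimulated genes. In epithelial tumour cells these chains set whether an interferon can be sensed at all. The 8 genes described here are these 5 receptor chains and 3 kinases, IFNGR1, IFNGR2, IFNAR1, IFNAR2, IL10RB, JAK1, JAK2 and TYK2. They were taken by symbol from the 55765 gene rows of each count table, and all 8 were found and passed the filter on low counts in both experiments, where 18012 and 18732 genes were tested.

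RNA was sequenced from OVCAR3, a long-established line of human serous ovarian carcinoma of high grade, kept in RPMI medium with 2% serum, in 18 libraries that formed 6 groups of 3. In the first experiment cells were given natural human IgA or IgG of no chosen specificity at 0.5 µg/ml, or no antibody. In the second they were given IgA against BDNF or IgA against TSPAN7 at the same dose, or no antibody. Both of these IgA preparations came from the culture medium of B cells of tumours that had been immortalised with a virus, grown as clones from single cells. Whether a preparation came from 1 clone or from several is not given in the sources used here. The labels give 24 h of treatment. Another description of the same sequencing gives a shorter time, and which holds was not settled. The study's text calls the replicates of the first experiment separate experiments and gives only their number for the second, and the labels do not say how the cultures were set up. In the second experiment p-values may therefore measure only a technical spread between libraries. The question was how tumour cells respond to IgA, which the polymeric immunoglobulin receptor carries across epithelial cells. Comparisons were made within an experiment only.

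Libraries held 27920733 to 42371474 counts in the first experiment and 39254350 to 47381836 in the second. Between 13115 and 25576 counts of a library fell on the 8 genes together. Among markers of serous ovarian carcinoma cells, 8 of 8 were detected in every library, at a summed 4261 to 6335 CPM (counts scaled to a common library total). The 7 leukocyte markers summed to 0.667 to 2.02 CPM, with 2 to 5 of them at 0. The fibroblast and endothelial markers summed to 63.4 to 110.1 CPM, nearly all of it from COL1A1 and COL1A2. DCN and PDGFRB had at most 16 and 7 counts in a library, VWF at most 1.58 CPM, and PECAM1 was not found by symbol. One library stood apart. The mitochondrial genome gave 19.1% of the counts of non-specific IgA replicate 3, against 5.75% to 8.32% in the other libraries of that experiment, and values of the 8 genes that rest on it are given without it below. Its part in the counts of other gene lists was not tested. In bulk RNA fewer cells with a transcript and less of it per cell cannot be told apart.

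Of the receptor genes, 4 lie side by side on chromosome 21, and the other receptor gene and the kinases are scattered. On GRCh37, in an annotation of that build newer than the authors', IFNAR2 (chr21:34577587-34637980), IL10RB (chr21:34638672-34683725), IFNAR1 (chr21:34696692-34732170) and IFNGR2 (chr21:34775719-34851655) follow each other on the plus strand over 274 kb. IFNGR1 lies at chr6:137518620-137540586 and JAK1 at chr1:65298906-65533437, both on the minus strand. JAK2 lies at chr9:4984390-5129948 on the plus strand and TYK2 at chr19:10461209-10491284 on the minus strand. Some exons are shared. A read-through transcript that joins IFNAR2 to IL10RB and a transcript antisense to IFNAR2 together cover 93.1% of the main IFNAR2 transcript, and the read-through covers 89.2% of the main IL10RB transcript. Whether strand entered the counting is not given in the sources used here, so reads there can have been shared or lost, and the levels of these 2 genes are uncertain. The antisense gene, listed as IL10RB-AS1, had at most 23 counts in a library. IFNGR2 shares 11.7% of its main transcript with TMEM50B on the other strand, which had 824 to 1826 counts. Reads of that part can likewise have been shared or lost. Unscaled TMEM50B counts were 1383, 1381 and 1270 with non-specific IgA and 1175, 1253 and 824 with IgG. In untreated cells of that experiment they were 1130, 1396 and 1165. The library with 1270 was the smallest, at 27920733 counts in total. What TMEM50B adds to the IFNGR2 values was not tested. IFNGR1, JAK2 and TYK2 share no exon bases with another gene.

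The DNA just before the start of the pair of IFNγ receptor genes is shown here, as both rose with non-specific IgA. The sequences are RefSeq promoters, found again by exact match on GRCh37 and cut before the first annotated exon base of any transcript. They run 5′ to 3′ along the gene's strand, at chr6:137540587-137540772 (minus strand, 186 bases) for IFNGR1 and chr21:34775469-34775718 (plus strand, 250 bases) for IFNGR2. Capitals mark matches to the NF-kB motif.
IFNGR1: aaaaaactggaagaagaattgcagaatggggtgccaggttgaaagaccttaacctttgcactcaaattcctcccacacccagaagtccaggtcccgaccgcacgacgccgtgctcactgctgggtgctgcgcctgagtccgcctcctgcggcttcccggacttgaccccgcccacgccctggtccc
IFNGR2: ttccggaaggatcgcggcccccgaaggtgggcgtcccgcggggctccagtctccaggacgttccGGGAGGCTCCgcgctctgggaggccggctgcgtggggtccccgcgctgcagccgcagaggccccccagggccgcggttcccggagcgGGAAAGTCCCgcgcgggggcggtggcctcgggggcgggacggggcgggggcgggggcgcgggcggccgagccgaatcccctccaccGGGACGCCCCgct

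Motifs were searched on both strands in the 250 bases before the start, for the 7 of 8 genes with an entry in the RefSeq table. IFNAR2 had none. These windows were not cut at exons. Annotated exons of any transcript covered 219 of the 250 bases for IFNAR1, 180 for IL10RB and 141 for JAK2. They covered 64 bases for IFNGR1, 36 for TYK2, 20 for JAK1 and 0 for IFNGR2. The STAT dimer motif TTCNNNGAA was in 0 of 7, against 6.57% of 35116 promoters. The motif of the interferon-stimulated response element (ISRE) was also in 0 of 7, against 3.02% of all promoters, and the AP-1 motif TGANTCA in 0 of 7, against 6.57%. The NF-kB motif was in 1 of 7, against 9.96% of all promoters, with 3 matches before IFNGR2 that end 177, 90 and 4 bases upstream of its start. The GC box GGGCGG was in 6 of 7, against 42.6% of all promoters, and TYK2 was the gene without it. A match is a description of letters, not of binding. IFNGR2 also had the most GC-rich window, at 80.4% G and C, against a median of 58.0% over all promoters.

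In untreated cells all the chains of the receptors for IFNγ and type I interferons were present, and JAK1 exceeded JAK2 by far. Levels of different genes are given as CPM for each kilobase of the main transcript. In the first experiment JAK1 was at 38.1 ± 2.505 (SD, n = 3), IFNAR1 at 22.2 ± 0.746, IL10RB at 20.96 ± 0.828 and IFNGR2 at 19.9 ± 0.398. Below them came IFNGR1 at 11.2 ± 0.730, TYK2 at 9.51 ± 0.427, IFNAR2 at 5.44 ± 0.445 and JAK2 at 1.19 ± 0.0841. IL10RB and IFNGR2 overlapped, and the libraries of the other neighbours in this order did not.

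The untreated cells of the second experiment gave a like order. JAK1 was at 43.9 ± 0.674, IFNGR2 at 22.5 ± 0.205, IFNAR1 at 22.1 ± 1.35 and IFNGR1 at 15.6 ± 0.821. IL10RB was at 15.1 ± 1.25, TYK2 at 9.75 ± 0.429, IFNAR2 at 6.44 ± 0.574 and JAK2 at 1.56 ± 0.0342. Here IFNGR2 overlapped with IFNAR1 and IFNGR1 with IL10RB. Library by library, JAK1 was 27.99 to 35.04 times the level of JAK2 in untreated cells of the first experiment and 27.3 to 29.1 times in the second. The order depends on the length taken for a gene. With the exons of all transcripts joined, JAK1 stayed first, IFNAR2 seventh and JAK2 last in both untreated groups, and IL10RB fell to rank 5 and rank 6. On that length the ratio of JAK1 to JAK2 was smaller. Their means were 14.7 and 1.06 in the first experiment and 17.0 and 1.39 in the second.

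**Figure D1:**
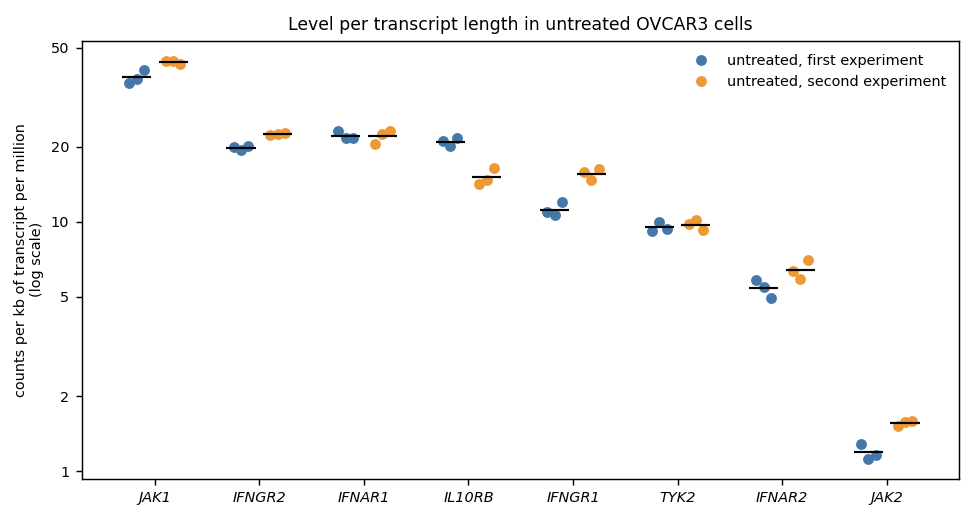
Level of each gene in untreated OVCAR3 cells, in CPM for each kilobase of the main transcript on a log axis, for the 3 untreated libraries of each experiment (points) with their mean (black line). JAK1 is highest and JAK2 lowest in both experiments, at 38.1 and 1.19 in the first.

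The first comparison asks what IgA of no chosen specificity does that IgG does not. Of the 8 genes, 3 rose with non-specific IgA against IgG (IFNGR1, IFNGR2 and JAK1) and 1 fell (IFNAR1), by edgeR's quasi-likelihood test with Benjamini-Hochberg adjustment at an adjusted p under 0.05. Over all genes tested 12.6% rose and 11.6% fell. Against untreated cells the same 4 genes were called in the same directions, where 12.9% of all genes rose and 12.1% fell. These comparisons share the IgA libraries.

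IFNGR1, the chain that binds IFNγ, moved furthest. Its normalised counts (counts divided by the library's TMM-scaled size and multiplied by the experiment's mean size) were 1665, 1434 and 1420.1 with IgA. They were 781, 788 and 763 with IgG, and 802, 778 and 879.8 in untreated cells. Every IgA library lay above every IgG and untreated library, by a margin far wider than the spread within a group. The log2 fold change was 0.95 against IgG (SE 0.11, 95% interval 0.72 to 1.19), which is 1.94-fold, with an edgeR adjusted p of 8.74e-05. Against untreated cells it was 0.88 (SE 0.11, 1.84-fold, edgeR adjusted p = 0.000139). IFNGR1 and IFNGR2 were among the genes the study displayed, chosen on these libraries, so their direction is not independent evidence.

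IFNGR2, the chain that brings JAK2 to the complex, rose by a like amount. IgA libraries were at 2351, 1712 and 2369 normalised counts. IgG libraries were at 1239, 1231 and 1181, and untreated libraries at 1199, 1163 and 1208. The IgA group did not overlap with the others, although its replicate 2 sat well below its other replicates. The log2 fold change was 0.82 against IgG (SE 0.12, 1.76-fold, edgeR adjusted p = 0.000695) and 0.85 against untreated cells (SE 0.12, 1.801-fold, edgeR adjusted p = 0.000463). Both IFNγ receptor genes were called under all 16 alternative settings in each of these comparisons. Without IgA replicate 3 the log2 fold changes against untreated cells were 0.92 for IFNGR1 and 0.77 for IFNGR2.

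The type I interferon receptor went the other way in 1 of its chains. IFNAR1 was at 3761, 4040.2 and 2933 normalised counts with IgA. With IgG it was at 4310.1, 4464 and 5039.7, and in untreated cells at 4938, 4655 and 4668. All IgA libraries lay below the others, and replicate 3 was the lowest. IFNAR1 fell by 0.36 on the log2 scale against IgG (SE 0.12, edgeR adjusted p = 0.0414) and by 0.41 against untreated cells (SE 0.12, edgeR adjusted p = 0.0242). The call against IgG was lost under 10 of 16 alternative settings. That against untreated cells was lost under 3 of 16, without any 1 of the untreated libraries (edgeR adjusted p up to 0.0886). Without IgA replicate 3 the log2 fold change against IgG was -0.24 (edgeR adjusted p = 0.0810) and that against untreated cells -0.29 (edgeR adjusted p = 0.0420). IFNAR2, the partner chain, was at 833, 717 and 1068 with IgA, 733, 757 and 810.3 with IgG and 839, 790.3 and 712 in untreated cells. The IFNAR2 groups overlapped, and its log2 fold change against untreated cells had a 95% interval from -0.15 to 0.47 (edgeR adjusted p = 0.459).

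IL10RB, the chain shared with IL-10 and type III interferon receptors, was low with IgA but was not called. Its normalised counts were 1256, 1244 and 1177 with IgA, 1326, 1534 and 1699.7 with IgG and 1441, 1374 and 1486 in untreated cells. The IgA libraries lay below all others. The log2 fold change was -0.31 against IgG (SE 0.11, edgeR adjusted p = 0.0565) and -0.23 against untreated cells (SE 0.11, edgeR adjusted p = 0.152). Without IgA replicate 3 the IL10RB values were -0.28 and -0.20 and were not called. Of the 8 genes, 3 had all IgA libraries above IgG and 2 had all below, where 19.7% and 20.6% of all genes did. Against untreated cells the counts were also 3 above and 2 below, where 19.8% and 20.1% of all genes did.

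Among the kinases only JAK1, which serves both the IFNγ and the type I receptor, was called. JAK1 was at 8057, 8902 and 9893 normalised counts with IgA, 7230.4, 6695 and 7175 with IgG and 6449, 6724 and 7327 in untreated cells. The IgA libraries were the highest, with replicate 3 at the top. JAK1 rose by 0.35 on the log2 scale against IgG (SE 0.10, 1.27-fold, edgeR adjusted p = 0.0240) and by 0.39 against untreated cells (SE 0.10, 1.31-fold, edgeR adjusted p = 0.0136). Without IgA replicate 3 the JAK1 log2 fold changes were 0.27 and 0.31 and were called (edgeR adjusted p = 0.0498 and 0.0259). With library size as the only scaling those over all libraries became 0.11 and 0.17 and were not called (edgeR adjusted p = 0.533 and 0.292). That scaling moved the median of all genes by -0.23 and -0.21, and took the share of calls that were higher in IgA from 51.9% to 19.4% against IgG and from 51.4% to 23.3% against untreated cells. Relative to the median of all genes JAK1 was higher by 0.36 and 0.40 with TMM scaling and by 0.35 and 0.39 with library size alone. Subtracting the median takes out any shift common to all genes, so these values had to be alike. They cannot decide which scaling holds.

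JAK2, the kinase of IFNGR2, stayed a low transcript with a wide spread. It was at 250.03, 362 and 309.6 normalised counts with IgA, 315, 315 and 303 with IgG and 318, 277 and 288 in untreated cells. The groups overlapped, and the 95% interval of the log2 fold change against untreated cells ran from -0.30 to 0.42. TYK2, the kinase of IFNAR1 and IL10RB, was at 1148, 1260.1 and 1546 with IgA, 1477, 1611 and 1497 with IgG and 1370.5, 1493 and 1401 in untreated cells. Its replicate 3 was apart from the other IgA libraries. Against IgG the TYK2 log2 fold change was -0.21 (edgeR adjusted p = 0.205), and without replicate 3 it was -0.35 and called (edgeR adjusted p = 0.0235).

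**Figure D2:**
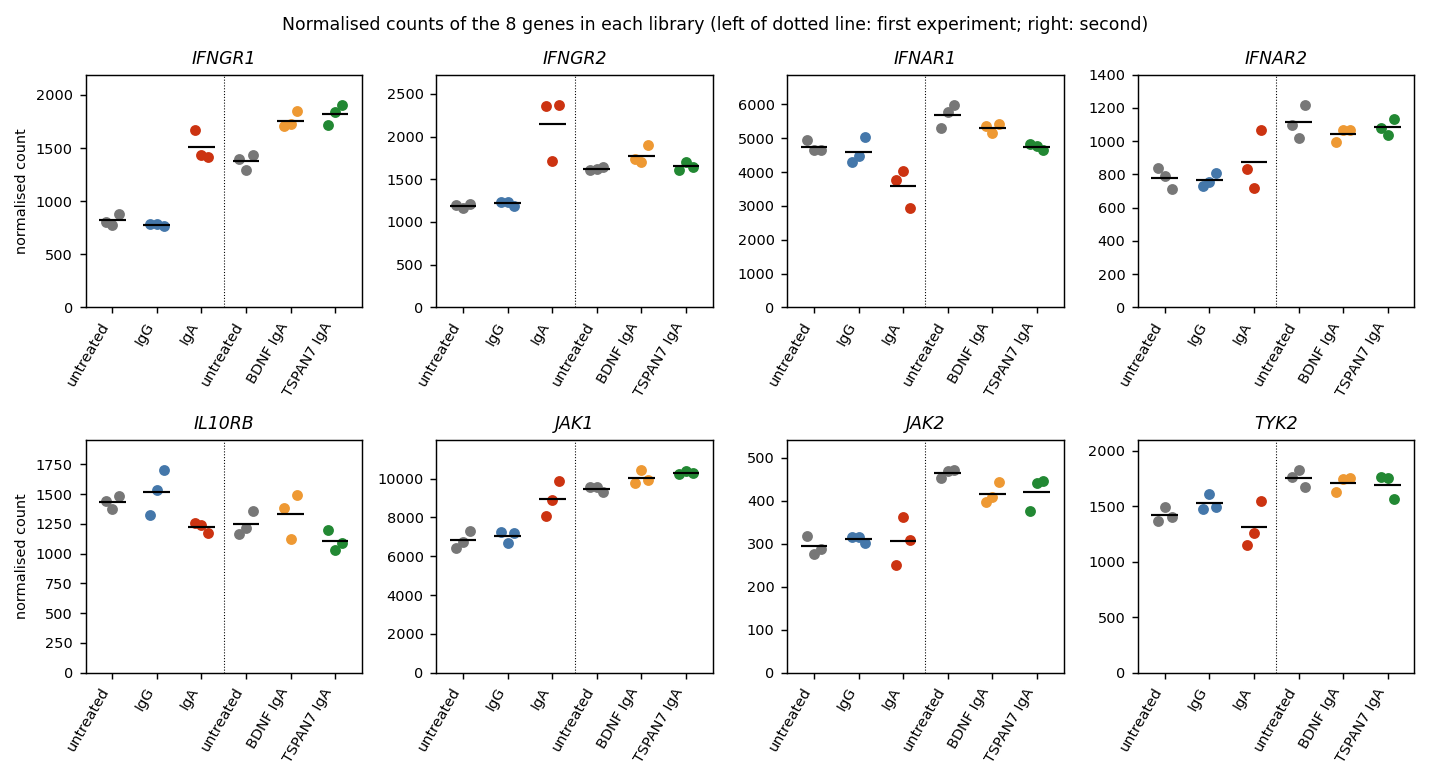
Normalised counts of the 8 genes (vertical axis, from 0) in each of the 18 libraries (points) with the mean of each group (black line). The first experiment is left of the dotted line and the second right of it, and levels are comparable only on the same side. The IgA libraries of IFNGR1, at 1420.1 to 1665, stand above all IgG and untreated libraries of their experiment.

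With IgG of no chosen specificity no change of these genes from untreated cells was detected. None of the 8 was called, and neither was any of the 18012 genes tested (0%), by edgeR's quasi-likelihood test or DESeq2. At an unadjusted p under 0.05 edgeR gave 89 genes and DESeq2 139. The fit pools the spread of all 9 libraries, and the IgA replicates differed most from each other. Their pairs gave a chi-square for each degree of freedom of 67.0 to 232. It was 6.60 to 25.0 with IgG and 12.5 to 23.0 in untreated cells. The p-values and intervals for IgG therefore carry the IgA spread, and small changes can have been missed. With only the 6 libraries compared none of the 8 was called either. All 8 genes had overlapping groups, where 3.32% of all genes lay above without overlap and 3.43% below. The log2 fold changes ran from -0.08 for IFNGR1 to 0.10 for TYK2. For IFNGR1 the 95% interval was -0.31 to 0.16 and for IFNGR2 -0.23 to 0.30, so the log2 fold changes seen with IgA lay outside both intervals.

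The second experiment compares IgA of 2 known targets with untreated cells. It holds no IgG or non-specific IgA. With BDNF IgA 1 of 8 genes rose against untreated cells and 0 fell, where 4.49% of all genes rose and 3.18% fell (7.67% in all). With TSPAN7 IgA 1 of 8 rose and 1 fell, where 4.46% rose and 4.08% fell (8.54% in all). Groups did not overlap for 3 genes above and 1 below with BDNF IgA, where 12.8% and 12% of all genes did so. With TSPAN7 IgA there were 2 above and 2 below, where 14.4% and 14% did so. Both comparisons share the 3 untreated libraries.

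IFNGR1 was the gene that rose with both. Its normalised counts were 1704, 1722 and 1849 with BDNF IgA and 1718, 1835 and 1905 with TSPAN7 IgA, against 1399, 1293 and 1430.4 in untreated cells. Every treated library lay above every untreated one. The log2 fold change was 0.36 with BDNF IgA (SE 0.06, 1.28-fold, edgeR adjusted p = 0.000542) and 0.40 with TSPAN7 IgA (SE 0.06, 1.32-fold, edgeR adjusted p = 0.000103). These 2 antibodies did not differ detectably in IFNGR1, with a 95% interval of their log2 difference from -0.07 to 0.17. IFNGR2 was not called with either. It was at 1737, 1698 and 1896 with BDNF IgA, 1605, 1699 and 1645 with TSPAN7 IgA and 1612, 1618 and 1639.9 in untreated cells. Its log2 fold change was 0.13 with BDNF IgA (SE 0.05, 95% interval 0.02 to 0.24, edgeR adjusted p = 0.153), where the groups did not overlap, and 0.02 with TSPAN7 IgA (SE 0.05, 95% interval -0.09 to 0.14).

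The balance of the receptor chains can be read within each library, where it does not depend on scaling. The level of IFNGR2 per transcript length was 1.40 to 1.53 times that of IFNGR1 in untreated cells of the second experiment. It was 1.204 to 1.25 times with BDNF IgA and 1.05 to 1.14 times with TSPAN7 IgA, and these 3 ranges do not overlap. In the first experiment, where both genes rose with IgA, the ratio was 1.46 to 2.04 with IgA and 1.68 to 1.83 in untreated cells, and the ranges overlap. With IgG it was 1.89 to 1.94, above untreated cells without overlap, although neither gene was called for IgG. These ratios are descriptions and were not tested.

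IFNAR1 fell with TSPAN7 IgA. Its normalised counts were 4821, 4779 and 4653 with TSPAN7 IgA, 5350.3, 5152 and 5416 with BDNF IgA and 5308, 5777 and 5987 in untreated cells. The TSPAN7 IgA libraries lay below all others of the experiment, and the BDNF IgA and untreated groups overlapped. IFNAR1 fell by 0.26 on the log2 scale against untreated cells (SE 0.05, edgeR adjusted p = 0.00115), and it was called under all 17 alternative settings. With BDNF IgA the log2 fold change was -0.10 (SE 0.05, edgeR adjusted p = 0.211). Tested directly, IFNAR1 was lower by a log2 fold change of -0.16 with TSPAN7 IgA than with BDNF IgA (SE 0.05, edgeR adjusted p = 0.0417), and this call was lost under 6 of 17 alternative settings. That was 1 of 8 genes lower and 0 higher between the antibodies, where 4.5% of all genes were lower and 3.42% higher (7.92% in all), and it was 1 of the 12.1% of genes lower without overlap, where 11.5% were higher. Leaving out any of the TSPAN7 IgA libraries, BDNF IgA replicate 1, BDNF IgA replicate 3 or untreated replicate 2 removed the call, with log2 fold changes from -0.14 to -0.17. The ratio of IFNAR1 to IFNAR2 was 2.75 to 3.09 with TSPAN7 IgA, 3.24 to 3.61 with BDNF IgA and 3.24 to 3.79 in untreated cells. In the first experiment it was 1.84 to 3.78 with non-specific IgA, lowest in replicate 3. There it was 3.95 to 4.17 with IgG and 3.95 to 4.40 in untreated cells. These ratios were not tested, and they rest on IFNAR2, whose level is uncertain because of the shared exons.

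IL10RB and JAK1 came near the threshold in the second experiment. IL10RB was at 1383, 1119 and 1491 normalised counts with BDNF IgA, 1195, 1029 and 1085 with TSPAN7 IgA and 1163, 1213 and 1360.0 in untreated cells. All groups overlapped. The log2 difference between TSPAN7 IgA and BDNF IgA was -0.27 (SE 0.09, edgeR adjusted p = 0.0585), and without BDNF IgA replicate 2 it was -0.38 and called (edgeR adjusted p = 0.000320). JAK1 was at 9773, 10432 and 9940.2 with BDNF IgA, 10228, 10394 and 10286 with TSPAN7 IgA and 9559.7, 9577 and 9317 in untreated cells. Both treated groups lay above untreated. Its log2 fold change was 0.12 with TSPAN7 IgA (SE 0.04, edgeR adjusted p = 0.0768) and 0.08 with BDNF IgA (SE 0.04, edgeR adjusted p = 0.239), and the former passed with DESeq2 (adjusted p = 0.0307).

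IFNAR2, JAK2 and TYK2 were called in no comparison of either experiment. JAK2 was at 397, 409.5 and 444 with BDNF IgA, 376, 442 and 446 with TSPAN7 IgA and 453, 469 and 471 in untreated cells. Both treated groups lay just below untreated, with log2 fold changes of -0.16 and -0.14 (edgeR adjusted p = 0.317 and 0.371). IFNAR2 ranged from 993 to 1135 in the treated libraries and from 1022 to 1218 in untreated cells. TYK2 ranged from 1564 to 1769 in the treated libraries and from 1672 to 1826 in untreated cells, and its largest difference was a log2 fold change of -0.05.

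**Figure D3:**
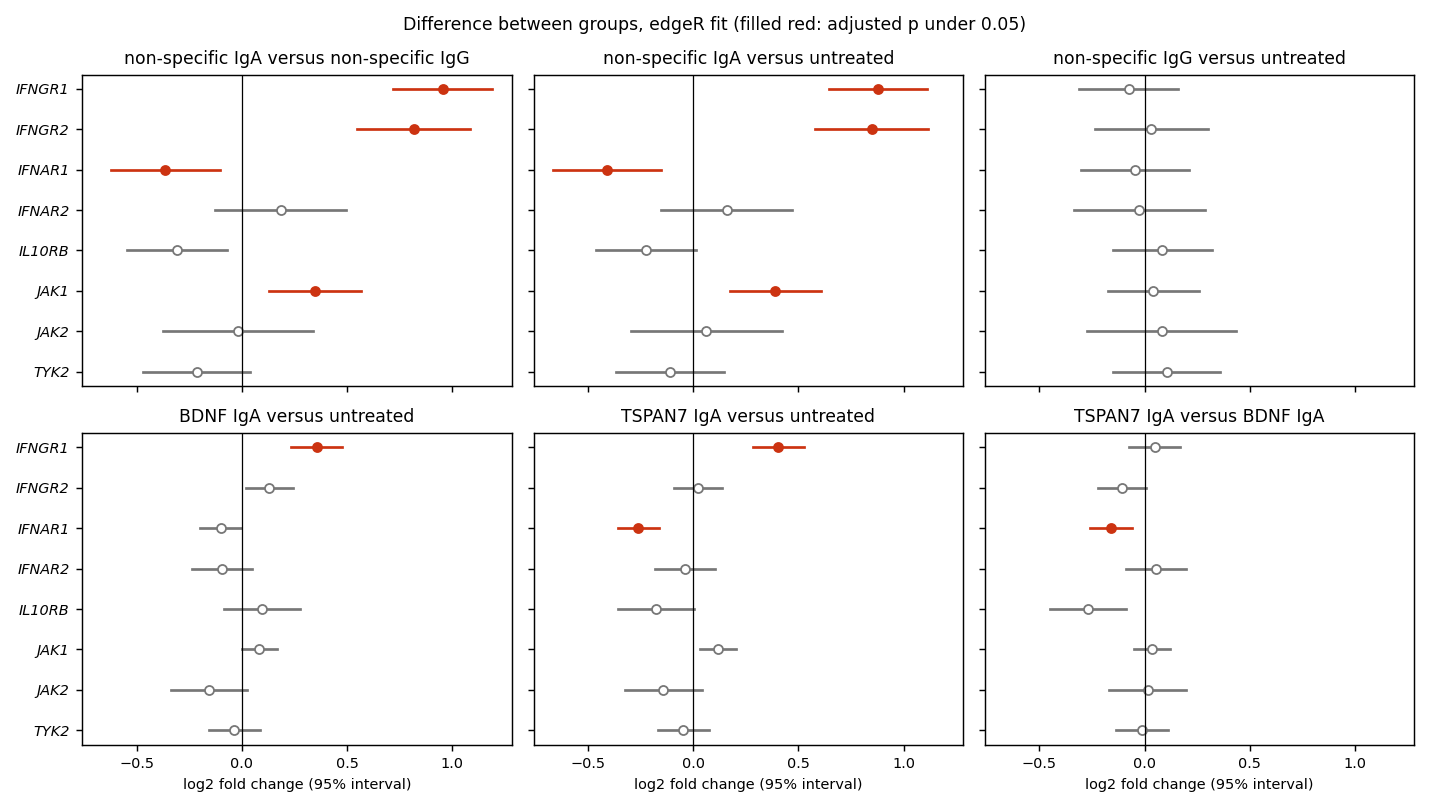
Log2 fold change of each gene with its 95% interval (horizontal axis) in the 6 comparisons, from the edgeR fit of each experiment. Filled red points passed an adjusted p of 0.05. IFNGR1 is red in all 4 comparisons of IgA with IgG or untreated cells, from 0.36 to 0.95, and intervals are narrower in the second experiment.

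**Figure D4:**
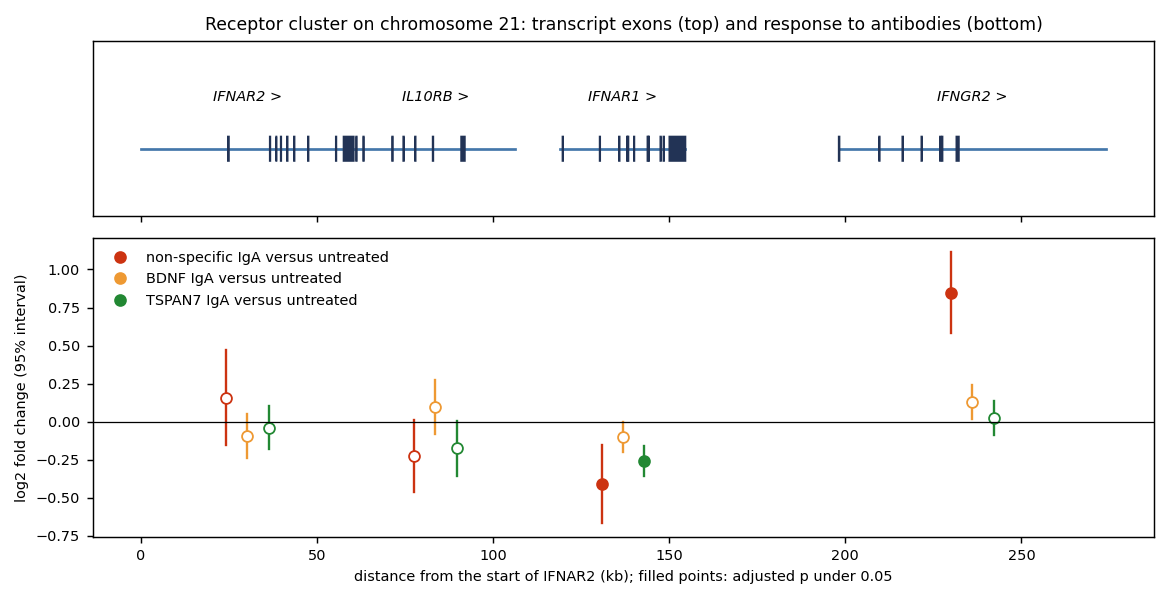
The 4 receptor genes on chromosome 21, with exons of the main transcript as blocks, outlined so that short ones stay visible (top, distance in kb from the start of IFNAR2) and the log2 fold change of each gene with its 95% interval for 3 IgA preparations against untreated cells (bottom, filled points called). With non-specific IgA the neighbours IFNAR1, at -0.41, and IFNGR2, at 0.85, were called in opposite directions, 43.5 kb apart.

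The neighbours on chromosome 21 did not move as a block. With non-specific IgA against untreated cells IFNGR2 rose, IFNAR1 fell (a call lost without any 1 untreated library), and IFNAR2 and IL10RB were not called, as the map of the cluster shows. The gap between IFNAR1 and IFNGR2 is 43.5 kb, that between IL10RB and IFNAR1 13.0 kb, and that between IFNAR2 and IL10RB 0.691 kb.

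For members called against untreated cells with a log2 fold change of at least 0.5, the genes with the most similar pattern were found over the 12 treated libraries, among 13347 genes. For IFNGR1 these were MYADM, a membrane protein, and SMAD3, which carries TGF-β signals to the nucleus, at a root mean square difference of 0.107 and 0.112 in log2 units. MYADM had log2 fold changes against untreated cells of 0.79 with non-specific IgA, 0.37 with BDNF IgA and 0.32 with TSPAN7 IgA. For IFNGR2 they were CIB1, a calcium-binding protein, and FNDC3B, at 0.0779 and 0.0839. CIB1 had log2 fold changes of 0.78, 0.08 and 0.06 in the same order.

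Transcripts for the ligands were nearly absent. All 21 interferon genes looked for were in the tables, and in the first experiment 16 of them, IFNG among them, were at 0 in all 9 libraries. In the second 14 were at 0, again with IFNG. A count of 0 in each library allows up to 3 counts. IFNB1, the type I interferon that most cells make first, had at most 2 and 4 counts in a library, and IFNL1, a type III interferon, at most 7 and 6. IFNA4 and IFNK reached 2 counts in the first experiment, and IFNA6, IFNA8, IFNL2 and IFNL3 reached 1 to 3 in the second. IFNA1, IFNA2, IFNA5, IFNA7, IFNA10, IFNA13, IFNA14, IFNA16, IFNA17, IFNA21 and IFNW1 were at 0 throughout. Among them IFNE, an interferon of the female reproductive tract, was the only one with enough counts to test. It had 6, 25 and 0 counts with non-specific IgA, 17, 46 and 49 with IgG and 24, 33 and 82 in untreated cells, and 76 to 134 in the second experiment. It was called in no comparison.

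Of the related receptor chains and JAK3, 6 of 7 were tested. None was called in the first experiment. JAK3, the kinase of the common gamma chain, fell with TSPAN7 IgA. It had 92.9, 91.7 and 83.4 normalised counts with TSPAN7 IgA, 143, 144 and 143 in untreated cells and 189, 143 and 198 with BDNF IgA. The TSPAN7 IgA libraries lay below all others. JAK3 fell by 0.68 on the log2 scale against untreated cells (SE 0.15, edgeR adjusted p = 0.00730) and by 0.98 against BDNF IgA (SE 0.15, edgeR adjusted p = 0.000371). IL22RA1, a chain of the IL-22 receptor that pairs with IL10RB, rose with BDNF IgA by 0.62 (SE 0.17, edgeR adjusted p = 0.0254). IFNLR1, the chain that pairs with IL10RB for type III interferons, had 43 to 65 counts in the first experiment and 25 to 61 in the second and was not called, with a largest log2 fold change of 0.85 for BDNF IgA against untreated cells (edgeR adjusted p = 0.0640).

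Downstream of the kinases, some STAT genes moved in each experiment. With non-specific IgA against untreated cells 2 of 6 tested STAT genes and IRF9 rose and 0 fell, where 12.9% of all genes rose and 12.1% fell (median log2 fold change 0.09, against -0.01 over all genes). STAT3, which serves the IL-6 and IL-10 receptors, rose 1.51-fold (edgeR adjusted p = 0.00119). STAT5B, which serves growth hormone and IL-2 receptors, rose 1.65-fold (edgeR adjusted p = 0.00308). In the second experiment STAT2 and IRF9, which act in the complex that type I interferon activates, rose 1.44-fold and 2.17-fold with BDNF IgA (edgeR adjusted p = 4.14e-05 and 0.00297). With TSPAN7 IgA STAT2 rose 1.21-fold and IRF9 1.93-fold (edgeR adjusted p = 0.0183 and 0.0103). Between these antibodies STAT2 was lower with TSPAN7 IgA by a log2 fold change of -0.26 (edgeR adjusted p = 0.0249). Whether responses differ between the experiments was not tested.

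Brakes on the pathway were tested as a list of 18 genes, all with enough counts. With non-specific IgA against untreated cells 3 rose and 2 fell (median -0.14, against -0.01 over all genes). Of all genes 12.9% rose and 12.1% fell, so these counts are near the background. SOCS3, a feedback inhibitor of receptors that use STAT3, fell to 0.428 of its level (849.9 ± 374 against 1997 ± 23.1 normalised counts, SD, n = 3, edgeR adjusted p = 0.00331). SH2B3, an adaptor that restrains JAK2, rose 2.30-fold (edgeR adjusted p = 4.92e-05), and SOCS6 rose 1.69-fold (edgeR adjusted p = 0.00133). With BDNF IgA 3 rose and 1 fell (median 0.06), where 4.49% of all genes rose and 3.18% fell. With TSPAN7 IgA 2 rose and 2 fell (median 0.05), where 4.46% rose and 4.08% fell. USP18, which is induced by interferon and holds back IFNAR2, rose 1.63-fold with BDNF IgA (edgeR adjusted p = 6.5e-06) and 1.65-fold with TSPAN7 IgA (edgeR adjusted p = 4.11e-06). SOCS3 fell with TSPAN7 IgA by 0.54 on the log2 scale (edgeR adjusted p = 1.26e-05).

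Target genes of type I interferon rose throughout with the IgA of known target. All 20 of 20 rose with BDNF IgA (median log2 fold change 1.496) and all 20 with TSPAN7 IgA (median 1.44), where 4.49% and 4.46% of all genes rose and the median over all genes was 0.00 in both. IFI27 rose 7.59-fold and 5.92-fold. IFI44L rose 7.56-fold and 6.10-fold. With non-specific IgA against untreated cells 1 of 20 rose and 1 fell (median 0.01), where 12.9% and 12.1% of all genes did. These were IRF7, 1.85-fold higher, and IFIT1, at 171 ± 10.2 against 252 ± 25.0 normalised counts. With TSPAN7 IgA these targets rose while IFNAR1 fell and IFNAR2 was not called.

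Target genes of IFNγ overlap with those of type I interferon. Of 18 listed 16 were tested. With non-specific IgA against untreated cells 6 rose and 2 fell (median 0.52, against -0.01 over all genes), where 12.9% of all genes rose and 12.1% fell. ICAM1, an adhesion molecule that NF-kB also induces, rose 6.36-fold (edgeR adjusted p = 1.41e-06) and IRF1, a transcription factor, rose 2.39-fold (edgeR adjusted p = 0.00233). CIITA, the master switch of MHC class II genes, had 23.5 ± 18.4 normalised counts against 89.5 ± 3.99 in untreated cells (SD, n = 3) and fell (edgeR adjusted p = 0.0102). With BDNF IgA 11 rose and 0 fell (median 0.44), against 4.49% and 3.18% of all genes. With TSPAN7 IgA 11 rose and 0 fell (median 0.34), against 4.46% and 4.08% of all genes. CXCL10, a chemokine that draws T cells, rose 2.87-fold with BDNF IgA and 3.33-fold with TSPAN7 IgA. Between these antibodies 0 were higher and 4 lower with TSPAN7 IgA, where 3.42% of all genes were higher and 4.5% lower, with GBP5 lower by a log2 fold change of -0.47 (edgeR adjusted p = 0.000960).

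Other receptors that signal through JAK kinases were tested for 13 of 22 genes in the first experiment and 14 in the second. With non-specific IgA against untreated cells 5 rose and 3 fell (median 0.30, against -0.01 over all genes), where 12.9% of all genes rose and 12.1% fell. LEPR, the leptin receptor, rose 1.63-fold (edgeR adjusted p = 0.00848). PRLR, the prolactin receptor, had 85.4 ± 23.6 normalised counts against 245 ± 108 in untreated cells (SD, n = 3) and fell (edgeR adjusted p = 0.00835). With BDNF IgA 1 rose, EPOR, the erythropoietin receptor, by 0.47 on the log2 scale, where 4.49% of all genes rose, and with TSPAN7 IgA none was called. None of the genes of these lists was called for IgG against untreated cells.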

How the data were processed

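The authors sequenced OVCAR3 RNA as read pairs of 75 bases. According to their methods, reads were trimmed, mapped with STAR to GRCh37, and assigned to genes by featureCounts. The submitters' processing notes name bcl2fastq 2.20.0.422, cutadapt 1.8.1 and HTSeq 0.6.1, a different counter, and which of them made the tables is not settled. The deposited values are raw counts with no normalization, in 1 table for each experiment. For the second experiment 2055 of 57820 rows were exact copies of others and were left out (1.99% to 2.46% of a library's counts). No replicate looked like a copy of another: counts of replicate pairs gave a chi-square of 3.91 to 232 for each degree of freedom.

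The 9 libraries of an experiment entered a single two-sided fit in edgeR 4.0.16 (R 4.3.3), with TMM scaling, the filterByExpr filter and the quasi-likelihood test. Genes were called where the p-value, adjusted by Benjamini-Hochberg over all genes tested in a comparison, was under 0.05. Standard errors are the size of the log2 fold change over the root of F. An exact permutation test of 3 libraries against 3 cannot go below p = 0.1 and was not used. The common dispersion of counts was 0.0307 in the first experiment and 0.00303 in the second, so smaller changes can pass the threshold in the second. The first value includes the IgA replicates, which differed most from each other. The second may hold only a technical spread, so its calls need not be the more certain. Reads carry no molecular identifiers, so limits from counts of 0 cover counting error only.

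Groups and replicate numbers came from the sample titles. The titles do not say whether the numbers pair the samples. Deviations of same-numbered libraries correlated over 0.1 in 1 of 9 pairs in the first experiment and 0 of 9 in the second. They ran from -0.069 to 0.247 and from -0.017 to 0.089. Between different numbers the correlations ran from -0.210 to 0.143 and from -0.077 to 0.053. These values do not settle pairing, so the main fit had no pairs and a replicate block was run as an alternative. The 8 genes, the lists and the tests were chosen with earlier results of these data known. Named genes were the 8 members, all interferon ligands, JAK3 and IFNLR1, and in each comparison up to 3 called genes of a list with the largest change and a mean of 50 or more normalised counts in a group. To these were added the 2 nearest genes for members with a log2 fold change of at least 0.5, and genes that overlap a member. Some results of the gene lists are not reported here. Positions and exon lengths are from GENCODE version 44 mapped to GRCh37. Alternatives were DESeq2 1.42.0, other scalings, no filter on low counts, only the 6 libraries compared, a replicate block, no mitochondrial or ribosomal RNA genes, duplicate rows kept, and each library left out. The scripts were tested on simulated data. There edgeR kept close to its nominal rate of false calls, and DESeq2 exceeded it in the first experiment. All groups were simulated with the same dispersion for a gene, whereas IgA replicates of the first experiment differed more than the others. The rates from this test do not cover such a difference between groups. The limit that this test had to meet was kept for edgeR only, after DESeq2 had missed it. Figures were drawn with matplotlib 3.10.9.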

Additional observations from a re-analysis of the deposited data

How the results depend on the processing

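The rises of IFNGR1 with every IgA preparation against untreated cells or IgG, the rise of IFNGR2 with non-specific IgA, and the fall of IFNAR1 with TSPAN7 IgA against untreated cells kept their direction and call under every alternative run. The count of members called for non-specific IgA against IgG was 4, and 2 with only the 6 libraries compared. For TSPAN7 IgA against BDNF IgA it was 1, and 2 with DESeq2, library size alone, no filter on low counts or the replicate block, which added IL10RB. With a library left out the members called ran from 2 to 4 (non-specific IgA against IgG, lowest without IgG replicate 2 or 3), 2 to 4 (against untreated, lowest without untreated replicate 1 or 2), 0 to 0 (IgG), 1 to 1 (BDNF IgA), 2 to 3 (TSPAN7 IgA) and 0 to 2 (between these antibodies). All genes called ran from 2566 to 5286, 2601 to 5229, 0 to 0, 734 to 2798, 757 to 2304 and 482 to 3276 in the same order, and 2 genes were called for IgG without a filter on low counts. Each of the 3 highest counts of the second experiment was found without BDNF IgA replicate 2. With the replicate block the call of IFNAR1 against IgG was lost (log2 fold change -0.37, edgeR adjusted p = 0.0534), IL10RB was called between TSPAN7 IgA and BDNF IgA (-0.26, edgeR adjusted p = 0.0259), and no other member changed its call.

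The call of JAK1 against IgG was lost without any 1 IgG library (log2 fold change 0.31 to 0.36), and against untreated cells without untreated replicate 1 or 2 (0.35 and 0.37). That of IFNAR1 against untreated cells was lost without any 1 untreated library (-0.43 to -0.38). With library size alone TYK2 and IL10RB were called against IgG (-0.46 and -0.54). Only values not called changed sign. With library size alone these were IFNAR2 against IgG (-0.069) and untreated (-0.070), JAK2 against untreated (-0.14) and JAK2 between TSPAN7 IgA and BDNF IgA (-0.00034). With a library left out, JAK2 ran from -0.16 to 0.11 against IgG and from -0.080 to 0.19 against untreated with non-specific IgA, where IFNAR2 ran from -0.010 to 0.28 against untreated. For IgG against untreated, IFNAR1 ran from -0.12 to 8.3e-05, IFNAR2 from -0.091 to 0.029 and IL10RB from -0.0029 to 0.17. With TSPAN7 IgA against untreated, IFNAR2 ran from -0.096 to 0.032 and TYK2 from -0.081 to 0.0080. Between TSPAN7 IgA and BDNF IgA, JAK2 ran from -0.029 to 0.092 and TYK2 from -0.045 to 0.042. The cause was not tested. Counts of all interferon ligands except IFNE were too low to test.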
